A study of Mus musculus with 41 samples.

Results

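Hindbrain and forebrain neurospheres that carried the K27M histone allele were compared in 6 RNA-seq libraries, 3 from hindbrain and 3 from forebrain, chosen by their labels from the 41 libraries of the series. Neurospheres are balls of neural stem cells and their progeny that grow in suspension, here from e15.5 mouse embryos kept under neural precursor conditions. Each culture letter (A, B and C) names 1 hindbrain and 1 forebrain library, and values below follow that order. The genotype of both K27M groups was Nestin-cre with H3f3aLSL-K27M-Tag/+, and all 6 libraries were labelled female. In this allele a stop cassette between loxP sites precedes a tagged H3f3a sequence, so that Cre made under Nestin, a gene of neural progenitors, switches on histone H3.3 in which lysine 27 is replaced by methionine. A further 6 libraries, from hindbrain and forebrain cultures D, E and F with Nestin-cre and H3f3aLSL-WT-Tag/+ (wild-type tagged H3.3, culture F male), served for the estimate of the spread and as the same contrast without the mutation. The rest of the series consisted of brainstem tumors, which were not used here. Whether a letter stands for 1 embryo or a pool is not given in the labels, so the spread between letters may be technical in part.

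The embryonic neural tube is divided along its length by transcription factors. Among the genes described below, Lhx2, Emx2 and Dmrta2 act in the telencephalon and Otx2 marks forebrain and midbrain. Iroquois genes and Pax3 act largely further back, and HOX genes mark the hindbrain behind its front end and the spinal cord. Neural stem cells keep part of this positional program in culture. H3 K27M, the mutation of diffuse midline gliomas, lowers trimethylation of H3 lysine 27, the mark laid down by Polycomb repressive complex 2, which silences many of these developmental genes.

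The 6 libraries looked like neural progenitor cultures by their markers. Nes, the intermediate filament nestin, was at 130.1, 128 and 109 FPKM in K27M hindbrain libraries and 126, 119.8 and 126 FPKM in K27M forebrain libraries (FPKM, fragments per kilobase of a transcript, divided by the mapped fragments of its library). Sox2, a stem cell transcription factor, was at 90.3, 90.9 and 108 FPKM in hindbrain and 96, 106 and 76.7 FPKM in forebrain libraries. Summed markers of endothelium were between 1.52 and 2.10 FPKM in K27M hindbrain and between 0.997 and 1.46 FPKM in K27M forebrain, and those of red blood cells stayed at or below 0.244 FPKM in hindbrain and 0.315 FPKM in forebrain. Of 15 microglia markers, 13 were below 1 FPKM in all 3 libraries of either region. H3f3a was at 115, 115 and 112 FPKM in hindbrain and 105, 115 and 89 FPKM in forebrain (log2 change 0.15 ± 0.09, adjusted p = 0.314), a value that sums the mutant and the wild-type allele and so cannot check the label. Xist was between 31.8 and 70.4 FPKM in the 6 libraries, as the female labels state. Depth relative to the median library, read from the steps between low FPKM values, was 0.829, 1.01 and 0.878 in K27M hindbrain and 0.291, 0.867 and 1.12 in K27M forebrain, so forebrain A was the shallowest of the 12. Forebrain C stood apart from forebrain A and B on the first principal component, at 16.3 against -8.41 and -4.04, and in models of ribosomal RNA. These summed to between 42.5 and 57.3 FPKM in K27M hindbrain and to 50.1, 36.6 and 729 FPKM in K27M forebrain.

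A sizeable part of the transcriptome of K27M cultures differed by region. Of 13190 genes tested, 1194 (9.05%) passed an adjusted p of 0.05, 683 (5.18%) higher and 511 (3.87%) lower in hindbrain, and 1044 (7.92%) passed without the culture block described next. All tests are limma on log2(FPKM + 1) with the culture letter as a block and Benjamini-Hochberg adjustment, log2 changes are hindbrain minus forebrain ± SE, and this scale understates changes of genes at low FPKM. The median log2 change over all genes tested was -0.01, and the groups did not overlap for 16.6% of them with hindbrain higher and for 15.3% with hindbrain lower. At 2-fold or more, 200 genes were higher and 115 lower, and the groups were apart for 198 and 113 of these. With 3 libraries a group, an exact permutation test of a single gene cannot give a p below 0.1. An exact sign-flip test on the 3 pairs cannot give one below 0.25. The number of calls fell when single cultures were left out: it was 302 without culture A, 539 without B, 986 without C and 773 without WT-Tag culture E. It was 618 with no expression filter (32641 genes tested) and 502 with K27M libraries fitted alone. Leaving out a culture also leaves fewer libraries for the estimate of the spread, and culture E holds no K27M library. In bulk RNA, fewer cells of a type and less RNA per cell cannot be told apart, and this holds for each difference that follows. Counts of called members of a list, given below, are to be read beside the 9.05% called over all genes tested.

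Among hindbrain factors, Iroquois homeodomain genes, Foxb1 and Pax3 were higher in hindbrain cultures. Of 31 hindbrain progenitor and neuron factors, 11 were expressed highly enough to be tested, and 6 of these were higher and none lower in K27M hindbrain, with a median log2 change of 1.55. The same 6 and 0 calls were made without culture A, B or C. A gene at 0 in 1 region could pass the expression filter only through the other, so these shares describe the list and do not test it.

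Irx2, the Iroquois factor with the largest change, was at 9.87, 9.71 and 11.5 FPKM in K27M hindbrain, against 0.121, 0.101 and 0.039 FPKM in K27M forebrain (log2 change 3.38 ± 0.11, adjusted p = 4.97e-05). Its neighbour in the same gene cluster, Irx1, was at 6.41, 5.39 and 7.24 FPKM in hindbrain and 0.168, 0.212 and 0.022 FPKM in forebrain (log2 change 2.69 ± 0.15, adjusted p = 0.000254). The 2 genes were high in all 3 hindbrain libraries and close to 0 in all 3 forebrain libraries. Irx5 stood at 5.8, 5.58 and 6.52 FPKM in hindbrain and 0.042, 0.028 and 0.033 FPKM in forebrain (log2 change 2.75 ± 0.12, adjusted p = 9.56e-05), and Irx3 at 2.42, 1.79 and 2.4 FPKM in hindbrain and 0.145, 0.061 and 0.057 FPKM in forebrain (log2 change 1.55 ± 0.12, adjusted p = 0.000888). Foxb1, a forkhead factor of the developing neural tube, was at 6.13, 5.69 and 6.14 FPKM in hindbrain and 0, 0.022 and 0 FPKM in forebrain (log2 change 2.79 ± 0.17, adjusted p = 0.000305). Pax3, a paired-box factor of the dorsal neural tube, was at 2.04, 2.16 and 3.27 FPKM in hindbrain and 0.032, 0.022 and 0.034 FPKM in forebrain (log2 change 1.74 ± 0.19, adjusted p = 0.00251). No forebrain library reached the level of any hindbrain library for these genes. Of the members tested but not called, Zic1, a zinc finger factor of the dorsal neural tube, was at 4.92, 5.35 and 16.1 FPKM in hindbrain and 8.34, 8.29 and 7.49 FPKM in forebrain (adjusted p = 0.916), with overlapping groups.

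The regulatory sequence just ahead of the start sites is shown for 1 leading gene of each region, both among the genes with the largest changes. Windows of 250 bases upstream of the RefSeq gene start (GRCm38.p6) are given on the gene's strand, with CG dinucleotides in capitals. The Irx2 window lies at chr13:72628570-72628819 on the plus strand and holds 19 CG with 68.4% G and C. The Lhx2 window lies at chr2:38339031-38339280 on the plus strand and holds 25 CG with 72.8% G and C. Over the 32851 windows of 27025 genes in the RefSeq table, the median was 6 CG and 52.4% G and C, and 92.1% of windows held at least 1 CG.
Irx2: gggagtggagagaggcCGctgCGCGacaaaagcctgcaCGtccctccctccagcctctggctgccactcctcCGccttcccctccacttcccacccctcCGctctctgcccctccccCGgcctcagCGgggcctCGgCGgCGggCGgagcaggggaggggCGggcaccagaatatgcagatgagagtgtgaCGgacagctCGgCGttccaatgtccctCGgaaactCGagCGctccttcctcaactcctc
Lhx2: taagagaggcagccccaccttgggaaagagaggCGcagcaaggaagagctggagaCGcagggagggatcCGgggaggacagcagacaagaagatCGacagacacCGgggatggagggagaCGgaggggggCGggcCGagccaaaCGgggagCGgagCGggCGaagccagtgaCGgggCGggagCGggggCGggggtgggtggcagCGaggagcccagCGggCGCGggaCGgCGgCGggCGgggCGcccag
Tested genes with an entry had a higher median of 16 CG and 60.4% G and C, still below both windows. An entry was found for 63.1% of the tested genes, and for 67.5% and 61.7% of those higher and lower at 2-fold or more. Windows of the higher and lower genes had medians of 11 and 8 CG, below that of all tested genes. With so many genes lacking an entry, a difference between these sets was not tested.

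**Figure D1:**
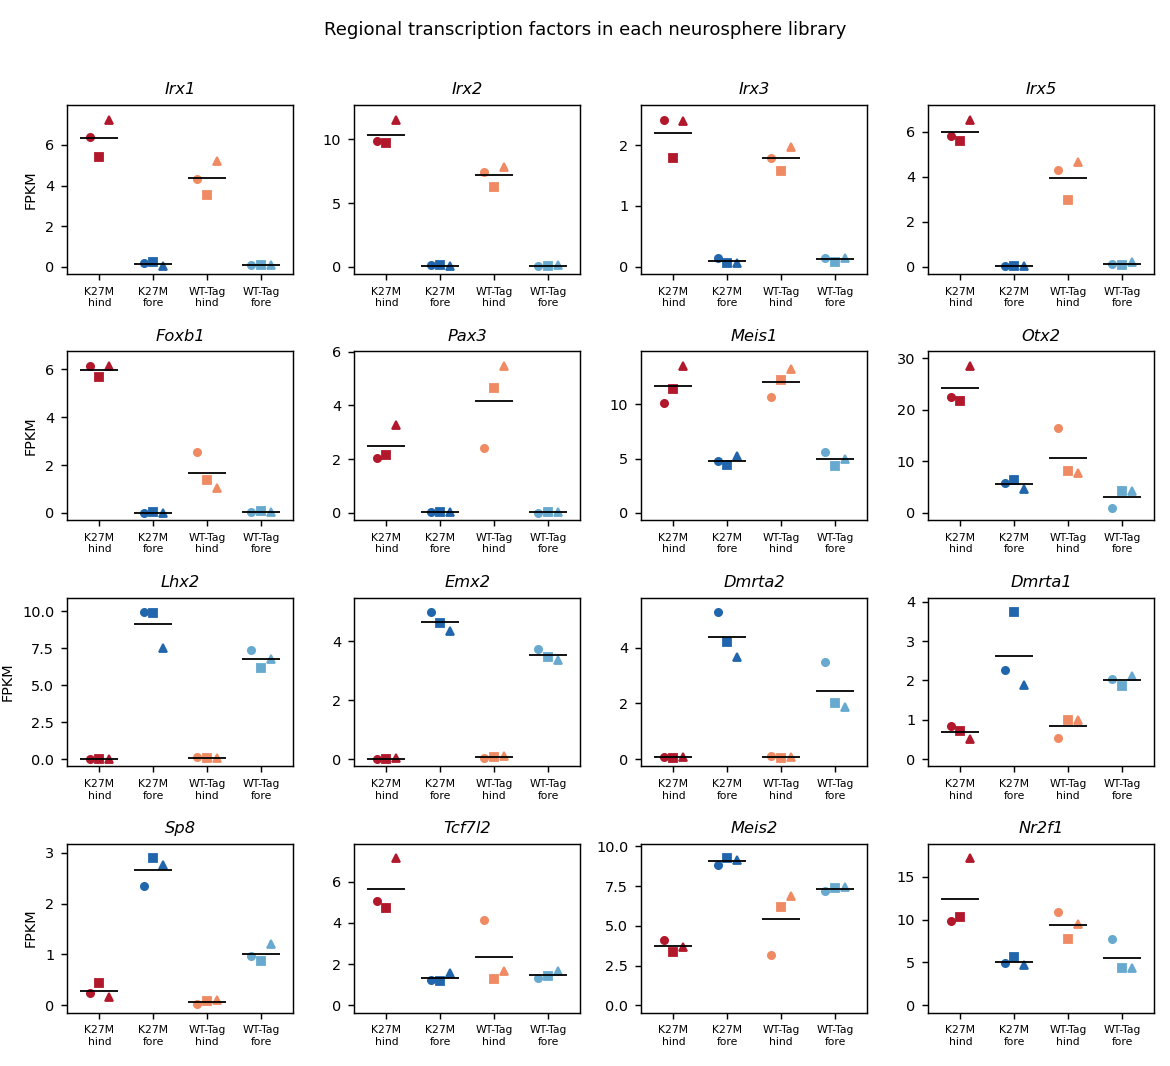
FPKM (y axis, from 0) of 16 regional transcription factors in each of the 12 neurosphere libraries, by group on the x axis (K27M hindbrain, K27M forebrain, WT-Tag hindbrain, WT-Tag forebrain). Circles are cultures A and D, squares B and E, triangles C and F, and bars are group means. Irx1, Irx2, Irx3, Irx5, Foxb1 and Pax3 are near 0 in all forebrain libraries, and Lhx2, Emx2 and Dmrta2 near 0 in all hindbrain libraries.

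On the forebrain side, the telencephalic factors Lhx2, Emx2 and Dmrta2 were near 0 in hindbrain cultures. Of 24 forebrain patterning factors, 14 were tested, 7 were lower and 4 higher in K27M hindbrain, and the median log2 change was -0.65. Lhx2, a LIM-homeodomain selector of the cortex, was at 0.016, 0.02 and 0.03 FPKM in K27M hindbrain, against 9.92, 9.88 and 7.51 FPKM in K27M forebrain (log2 change -3.30 ± 0.11, adjusted p = 4.97e-05). Emx2, a homeodomain factor that patterns the cortex, stood at 0, 0.011 and 0.025 FPKM in hindbrain and 4.99, 4.62 and 4.34 FPKM in forebrain (log2 change -2.48 ± 0.11, adjusted p = 9.56e-05). In both the groups were far apart. Dmrta2, a doublesex-related factor of the dorsal telencephalon, was at 0.084, 0.039 and 0.091 FPKM in hindbrain and 5.27, 4.21 and 3.67 FPKM in forebrain (log2 change -2.32 ± 0.16, adjusted p = 0.000506). Its relative Dmrta1 was at 0.845, 0.719 and 0.513 FPKM in hindbrain and 2.26, 3.73 and 1.89 FPKM in forebrain (log2 change -1.07 ± 0.16, adjusted p = 0.00844), and so retained a low level in hindbrain. Sp8, a zinc finger factor of the front of the cortex, stood at 0.235, 0.44 and 0.157 FPKM in hindbrain and 2.35, 2.89 and 2.75 FPKM in forebrain (log2 change -1.52 ± 0.12, adjusted p = 0.000958). The regions did not overlap for these 3 genes.

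Not all genes of the forebrain list fell in hindbrain: 4 were higher there. Otx2, the homeodomain factor that marks forebrain and midbrain and whose hind limit sets the border with the hindbrain, was at 22.5, 21.7 and 28.5 FPKM in K27M hindbrain, against 5.83, 6.42 and 4.61 FPKM in K27M forebrain (log2 change 1.93 ± 0.43, adjusted p = 0.0371). Each hindbrain library thus held more Otx2 than each forebrain library. Tcf7l2, a Wnt effector of the diencephalon, was at 5.07, 4.74 and 7.14 FPKM in hindbrain and 1.24, 1.2 and 1.54 FPKM in forebrain (log2 change 1.501 ± 0.23, adjusted p = 0.00939). Barhl2, a homeodomain factor of the diencephalon, was at 1.23, 2.23 and 2.96 FPKM in hindbrain and 0.23, 0.154 and 0.34 FPKM in forebrain (log2 change 1.30 ± 0.17, adjusted p = 0.00541). Nr2f1, the nuclear receptor COUP-TFI, stood at 9.8, 10.3 and 17.2 FPKM in hindbrain and 4.88, 5.67 and 4.65 FPKM in forebrain (log2 change 1.11 ± 0.18, adjusted p = 0.0129). For these 3 genes too the groups did not overlap, and hindbrain C was the highest library. Calls were lost for Otx2 without culture A, B, C or E (adjusted p up to 0.146), Tcf7l2 without A (adjusted p = 0.06) and Nr2f1 without A (adjusted p = 0.0524).

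Few genes of the ventral telencephalon, the cortical neuron lineage and the isthmus were expressed highly enough to be tested. Among 2 tested ventral telencephalic factors 1 was called: Six3os1, a noncoding transcript from the opposite strand beside the forebrain gene Six3, was at 0.21, 0.216 and 0.093 FPKM in hindbrain and 2.07, 1.53 and 2.32 FPKM in forebrain (log2 change -1.34 ± 0.21, adjusted p = 0.0104). The sources used here do not say if strand was used in counting, and reads of the 2 genes cannot be told apart where they overlap. Among 4 cortical lineage factors 1 was called, and the overlapping groups of Nfia, a nuclear factor of the onset of gliogenesis, were at 18, 15.6 and 20.6 FPKM in hindbrain and 13.1, 11.9 and 15.9 FPKM in forebrain (log2 change 0.39 ± 0.08, adjusted p = 0.0347). Of 3 tested midbrain and isthmus factors 2 were called. Cnpy1, which in zebrafish takes part in FGF signaling at the midbrain-hindbrain border, was at 1.17, 0.682 and 0.956 FPKM in hindbrain and 0.034, 0.103 and 0.098 FPKM in forebrain (log2 change 0.84 ± 0.20, adjusted p = 0.0425). En2, an engrailed factor of midbrain and cerebellum, was at 0.824, 0.501 and 0.531 FPKM in hindbrain and at 0.02, 0.027 and 0.016 FPKM in forebrain, and missed the threshold (adjusted p = 0.0603). Meis2, a TALE homeodomain factor listed both here and among HOX cofactors, was at 4.1, 3.35 and 3.69 FPKM in hindbrain and 8.82, 9.25 and 9.15 FPKM in forebrain (log2 change -1.10 ± 0.16, adjusted p = 0.00861). Calls were lost for Six3os1 without culture A (adjusted p = 0.0684), Nfia without A, B, C, D or F (adjusted p up to 0.197) and Cnpy1 without A, B, C or E (adjusted p up to 0.208). Without the culture block they were lost for Nfia (adjusted p = 0.0868) and Cnpy1 (0.0526).

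HOX genes, the positional code of the hindbrain behind its front end, were close to absent in both K27M groups. None of 39 HOX genes reached the expression filter. Their summed FPKM was 0.239, 0.722 and 0.235 in K27M hindbrain and 0.158, 0.447 and 0.508 in K27M forebrain. The highest single value was 0.213 FPKM, of Hoxa2 in hindbrain B, against a highest of 0.083 FPKM in forebrain. The regions overlapped in this sum, and with no filter none of the 39 was called (lowest adjusted p = 0.517). WT-Tag hindbrain cultures had sums of 1.68, 7.69 and 19.1 FPKM, with Hoxa2, the most anterior HOX gene to act in the hindbrain, at 0.642, 2.46 and 4.45 FPKM, against sums of 0.211, 0.388 and 0.589 FPKM in WT-Tag forebrain. No HOX gene was called there either (lowest adjusted p = 0.105), and the smallest adjusted p of the difference between the K27M and WT-Tag region effects was 0.573. K27M hindbrain cultures held Iroquois, Foxb1 and Pax3 RNA and little HOX RNA, beside the higher levels of Otx2, Tcf7l2 and Barhl2 given above. The latter are members of the forebrain list, and Otx2 is also on the list of ependyma and choroid plexus. What these levels say of the position of the cells along the brain was not tested.

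**Figure D2:**
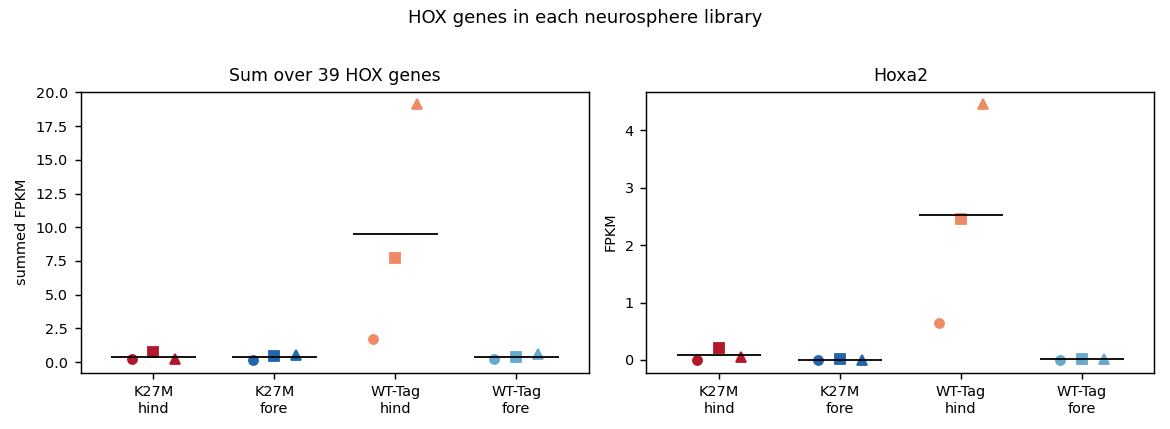
Summed FPKM of 39 HOX genes (left) and FPKM of Hoxa2 (right) in each neurosphere library, by group. Points are libraries, with circles for cultures A and D, squares for B and E and triangles for C and F, and bars are means. The K27M hindbrain sums of 0.235 to 0.722 overlap the K27M forebrain sums of 0.158 to 0.508, and the WT-Tag hindbrain sums of 1.68 to 19.1 lie above all other libraries.

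TALE-homeodomain partners of HOX proteins nevertheless differed by region. Among 9 HOX cofactors tested, 2 were higher and 1, Meis2, lower (33.3% called, beside 9.05% of all genes tested). Meis1 was at 10.2, 11.5 and 13.5 FPKM in hindbrain and 4.78, 4.43 and 5.23 FPKM in forebrain (log2 change 1.12 ± 0.11, adjusted p = 0.002), with the groups well apart. Pbx2 was at 8.29, 7.43 and 8.61 FPKM in hindbrain and 6.07, 6.15 and 6.29 FPKM in forebrain (log2 change 0.34 ± 0.08, adjusted p = 0.0464), a small difference whose call was lost without any 1 of the 6 cultures (adjusted p between 0.0669 and 0.238).

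Several of the largest differences lay in genes outside the patterning lists. Mab21l2, a mab-21 family gene of eye and midbrain development, had the largest change of all and was at 25.6, 21.9 and 31.9 FPKM in K27M hindbrain, against 0.037, 0 and 0.019 FPKM in K27M forebrain (log2 change 4.74 ± 0.42, adjusted p = 0.00129). Its relative Mab21l1 was at 13.5, 12.4 and 13.3 FPKM in hindbrain and 1.55, 1.75 and 1.79 FPKM in forebrain (log2 change 2.38 ± 0.10, adjusted p = 9.56e-05). Nr2f2, the nuclear receptor COUP-TFII, was at 7.8, 7.17 and 9.41 FPKM in hindbrain and 0.164, 0.145 and 0.225 FPKM in forebrain (log2 change 2.95 ± 0.17, adjusted p = 0.0003). In these 3 genes no library of 1 region came near the other region. Ebf1, a helix-loop-helix factor of neurons and B cells, was at 26, 24.9 and 23.4 FPKM in hindbrain and 2.65, 2.15 and 2.76 FPKM in forebrain (log2 change 2.88 ± 0.48, adjusted p = 0.0127). Calcrl, the receptor of adrenomedullin and calcitonin gene-related peptide, was at 28.7, 28.2 and 21.1 FPKM in hindbrain and 3.87, 2.9 and 3.33 FPKM in forebrain (log2 change 2.62 ± 0.16, adjusted p = 0.000317). Pdlim3, an actin-associated PDZ and LIM protein, stood at 22.2, 22.1 and 28.7 FPKM in hindbrain and 2.79, 3.14 and 2.44 FPKM in forebrain (log2 change 2.73 ± 0.23, adjusted p = 0.00111). Rcn3, a calcium-binding protein of the endoplasmic reticulum, was at 22.1, 12.6 and 24 FPKM in hindbrain and 2.74, 2.59 and 1.85 FPKM in forebrain (log2 change 2.56 ± 0.23, adjusted p = 0.00133). All 4 were several-fold higher in each hindbrain library than in any forebrain library. The call of Ebf1 was lost without culture A or B (adjusted p up to 0.0764).

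Genes that were lower in hindbrain by the largest amounts included neuronal, metabolic and membrane genes. Nrn1, the neurite growth protein neuritin, was at 0.06, 0.033 and 1.46 FPKM in K27M hindbrain, against 12, 13.8 and 11.4 FPKM in K27M forebrain (log2 change -3.26 ± 0.26, adjusted p = 0.000935), and hindbrain C was the highest of the low group. Dio2, the deiodinase that activates thyroid hormone, was at 0.58, 1.15 and 0.421 FPKM in hindbrain and 12.9, 16 and 10.4 FPKM in forebrain (log2 change -3.04 ± 0.13, adjusted p = 9.56e-05). For both genes the regions did not overlap. Hs3st2, a heparan sulfate sulfotransferase, was at 0.058, 0.123 and 0.033 FPKM in hindbrain and 3.45, 3.78 and 3.83 FPKM in forebrain (log2 change -2.13 ± 0.17, adjusted p = 0.000888). Trim9, a ubiquitin ligase enriched in brain, was at 2.14, 2.42 and 1.9 FPKM in hindbrain and 13.9, 12.4 and 10.9 FPKM in forebrain (log2 change -2.08 ± 0.21, adjusted p = 0.00181). Lix1 stood at 0.358, 0.485 and 0.231 FPKM in hindbrain and 5.36, 4.36 and 4.75 FPKM in forebrain (log2 change -2.10 ± 0.13, adjusted p = 0.000324). Mtmr11, a myotubularin-related protein, was at 5.67, 5.14 and 5.12 FPKM in hindbrain and 23.5, 20.4 and 23.6 FPKM in forebrain (log2 change -1.89 ± 0.08, adjusted p = 9.56e-05), with a narrow spread in both groups.

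Among secreted signals and their receptors, Wnt genes were called in 1 direction. Of 25 Wnt pathway genes tested, 6 were higher and none lower in K27M hindbrain (median log2 change 0.17), and 5 or 6 were higher without culture A, B or C. Dkk3, a secreted protein of the dickkopf family, was at 11.5, 12.4 and 17.1 FPKM in K27M hindbrain, against 0.595, 0.859 and 0.489 FPKM in K27M forebrain (log2 change 3.14 ± 0.19, adjusted p = 0.000305). Sfrp5, a secreted frizzled-related protein that binds Wnts, was at 8.04, 4.49 and 3.12 FPKM in hindbrain and 0.999, 1.32 and 0.617 FPKM in forebrain (log2 change 1.59 ± 0.20, adjusted p = 0.0046). Lgr5, an R-spondin receptor, was at 2.07, 2.11 and 2.55 FPKM in hindbrain and 0.204, 0.376 and 0.256 FPKM in forebrain (log2 change 1.34 ± 0.15, adjusted p = 0.00244). All 3 were higher in every hindbrain library than in any forebrain library. The other 3 calls were Fzd10, Wnt7b and Wnt5a, at log2 changes of 1.34, 0.91 and 0.54, and these 3 calls were lost without the culture block (adjusted p = 0.117, 0.155 and 0.39). The Wnt5a call was also lost without culture A or B (adjusted p up to 0.152). Wls, the carrier that takes Wnt proteins to the cell surface and not a member of the list, was at 77.1, 74.7 and 92 FPKM in hindbrain and 15.7, 12.53 and 11.5 FPKM in forebrain (log2 change 2.54 ± 0.13, adjusted p = 0.000139).

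Genes of FGF, EGF, PDGF and IGF signaling moved in both directions: 9 of 23 tested were higher and 4 lower, with a median log2 change of 0.30. Without culture A these counts were 3 and 1, and without B 5 and 1. Igfbp5, a secreted binding protein of insulin-like growth factors, was at 42.7, 33.7 and 58.6 FPKM in hindbrain and 14.8, 15.4 and 7.1 FPKM in forebrain (log2 change 1.81 ± 0.33, adjusted p = 0.0177). Igfbp4, of the same family, stood at 67.1, 46.2 and 33.4 FPKM in hindbrain and 16.3, 16.4 and 13.7 FPKM in forebrain (log2 change 1.55 ± 0.14, adjusted p = 0.00129). Dusp6, a phosphatase that is induced by and limits ERK signaling, was at 225, 218 and 186 FPKM in hindbrain and 96.6, 97.5 and 102 FPKM in forebrain (log2 change 1.08 ± 0.10, adjusted p = 0.0013). The groups were apart for the 3 genes, and forebrain libraries varied little for Dusp6. The call of Igfbp5 was lost without culture A (adjusted p = 0.0694). Pdgfra, the receptor of platelet-derived growth factor on oligodendrocyte precursors, was among the 4 lower calls at 7.18, 6.82 and 3.22 FPKM in hindbrain and 15.8, 16.8 and 5.01 FPKM in forebrain (log2 change -0.91 ± 0.15, adjusted p = 0.0137), but forebrain C lay within the range of the hindbrain libraries and the call was lost without culture A or B (adjusted p up to 0.101) and without the culture block (adjusted p = 0.185).

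Hedgehog, BMP, TGF-beta, Notch and retinoic acid genes gave few calls each, from short lists and at unlike shares. These were 33.3% of hedgehog, 23.5% of BMP and TGF-beta, 6.67% of Notch and 20% of retinoic acid genes, beside 9.05% of all tested. Of 9 hedgehog genes, 2 were higher and 1 lower (median log2 change 0.06). Gas1, a hedgehog co-receptor, was at 39.7, 39.3 and 76.3 FPKM in hindbrain and 22.7, 23.1 and 26.1 FPKM in forebrain (log2 change 1.01 ± 0.22, adjusted p = 0.0317), and Ptch1, receptor and target of the pathway, at 18.2, 16.3 and 21.1 FPKM in hindbrain and 12.3, 11.6 and 11.2 FPKM in forebrain (log2 change 0.61 ± 0.10, adjusted p = 0.0135). Cdon, also a co-receptor, was at 4.89, 6.07 and 4.25 FPKM in hindbrain and 10.2, 11.7 and 12 FPKM in forebrain (log2 change -1.03 ± 0.15, adjusted p = 0.00897). Co-receptors of 1 pathway thus differed in opposite directions. Of 17 BMP and TGF-beta genes, 2 were higher and 2 lower (median log2 change -0.02). Tgfbr2, the type II TGF-beta receptor, was at 3.39, 2.88 and 2.28 FPKM in hindbrain and 0.741, 0.539 and 0.985 FPKM in forebrain (log2 change 1.13 ± 0.16, adjusted p = 0.00742). Id4, an inhibitory helix-loop-helix factor, was at 1.18, 1.73 and 2.63 FPKM in hindbrain and 5.54, 7.35 and 4.03 FPKM in forebrain (log2 change -1.22 ± 0.25, adjusted p = 0.0267). The ligand Bmp7 was at 7.2, 6.06 and 6.68 FPKM in hindbrain and 11.4, 10.3 and 10.9 FPKM in forebrain (log2 change -0.64 ± 0.09, adjusted p = 0.00758). Calls were lost for Gas1 without culture A, B, C or F (adjusted p up to 0.104), Ptch1 without A (adjusted p = 0.0764), Cdon without A (adjusted p = 0.0552), Tgfbr2 without A (adjusted p = 0.0648), Id4 without A, B or E (adjusted p up to 0.157) and Bmp7 without A (adjusted p = 0.0605), and for Bmp7 (adjusted p = 0.184) without the culture block.

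Of 15 Notch genes 1 was called: Mfng, a fringe glycosyltransferase that modifies Notch, was at 2.05, 2.85 and 2.97 FPKM in hindbrain and 5.03, 4.76 and 4.94 FPKM in forebrain (log2 change -0.71 ± 0.15, adjusted p = 0.0265). Of 5 retinoic acid genes 1 was called: Aldh1a1, an enzyme that makes retinoic acid, was at 1.68, 2.84 and 1.55 FPKM in hindbrain and 0.243, 0.751 and 0.647 FPKM in forebrain (log2 change 0.96 ± 0.24, adjusted p = 0.0498). Both had groups that did not overlap, and both calls were fragile. These were lost for Mfng without culture A or B (adjusted p up to 0.17) and Aldh1a1 without A, B, C, E or F (adjusted p up to 0.211).

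Eph and guidance genes differed in both directions, and most of their calls were lost without culture A. Most calls over all genes tested were lost there too, with 302 left of 1194. The shares called were 31.2% of the Eph list and 35% of the guidance list, beside 9.05% of all genes tested. Of 16 Eph receptors and ephrins, 4 were higher and 1 lower (median log2 change 0.15), or 1 and 1 without culture A. Epha3 was at 16.9, 17.4 and 13.1 FPKM in K27M hindbrain, against 2.19, 1.48 and 1.83 FPKM in K27M forebrain (log2 change 2.57 ± 0.24, adjusted p = 0.00136). Ephb4 was at 5.6, 5.32 and 7.7 FPKM in hindbrain and 3.17, 3.09 and 2.62 FPKM in forebrain (log2 change 0.85 ± 0.15, adjusted p = 0.0172). Epha4, in contrast, was at 2.87, 2.67 and 2.67 FPKM in hindbrain and 7.19, 8.98 and 7.15 FPKM in forebrain (log2 change -1.23 ± 0.18, adjusted p = 0.00832). Receptors of the same family therefore differed in both directions, with groups apart in each. Of 20 axon guidance genes 4 were higher and 3 lower, or 1 and none without culture A. Ntn1, the guidance cue netrin-1, was at 36.9, 27.5 and 25.6 FPKM in hindbrain and 13.9, 13.9 and 11.8 FPKM in forebrain (log2 change 1.11 ± 0.18, adjusted p = 0.0125). Plxnd1, a semaphorin receptor, stood at 9.05, 8.05 and 8.97 FPKM in hindbrain and 4.27, 4.65 and 4.42 FPKM in forebrain (log2 change 0.83 ± 0.09, adjusted p = 0.00232). Sema3c, a secreted semaphorin, was at 1.69, 2.29 and 1.99 FPKM in hindbrain and 0.714, 0.639 and 0.718 FPKM in forebrain (log2 change 0.82 ± 0.18, adjusted p = 0.0314). Calls were lost for Ephb4 without culture A (adjusted p = 0.0683), Ntn1 without A (adjusted p = 0.0916) and Sema3c without A, B, C or E (adjusted p up to 0.128).

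Type II cadherins, adhesion proteins that sort cells into compartments, were more often lower than higher in hindbrain: 3 of 7 tested were lower and 1 higher, with a median log2 change of -0.44. Cdh19 was at 1.82, 1.71 and 1.78 FPKM in K27M hindbrain, against 4.81, 4.49 and 5.8 FPKM in K27M forebrain (log2 change -1.12 ± 0.09, adjusted p = 0.00103). Cdh11 was at 2.54, 3.44 and 3.26 FPKM in hindbrain and 6.76, 10.3 and 7.72 FPKM in forebrain (log2 change -1.17 ± 0.13, adjusted p = 0.00283), and Cdh10 at 2.28, 2.27 and 2.5 FPKM in hindbrain and 5.14, 5.52 and 5.03 FPKM in forebrain (log2 change -0.89 ± 0.10, adjusted p = 0.00298). Each of the 3 was lower in every hindbrain library than in any forebrain library, and the 3 calls were also made without culture A, B or C.

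Matrix genes were more often higher in hindbrain. Of 23 tested, 9 were higher and 4 lower (median log2 change 0.33), or 5 and 1 without culture A. The share called was 56.5%, beside 9.05% of all genes tested. Lama4, a laminin chain of basement membranes, was at 10.8, 8.7 and 7.14 FPKM in K27M hindbrain, against 1.67, 1.52 and 1.31 FPKM in K27M forebrain (log2 change 1.97 ± 0.16, adjusted p = 0.000888). Sparc, a collagen-binding matrix protein, was at 56.2, 33.1 and 55.6 FPKM in hindbrain and 14, 10.4 and 14.7 FPKM in forebrain (log2 change 1.79 ± 0.15, adjusted p = 0.001). Col11a1, a fibrillar collagen chain, went the other way at 2.96, 2.11 and 2.92 FPKM in hindbrain and 9.97, 9.34 and 11.4 FPKM in forebrain (log2 change -1.62 ± 0.15, adjusted p = 0.00136). The regions were apart for the 3 genes. Tnc, tenascin-C of progenitor zones, was at 232, 202 and 204 FPKM in hindbrain and 111, 102 and 82.8 FPKM in forebrain (log2 change 1.11 ± 0.15, adjusted p = 0.00586), the highest level of these 4. Summed markers of pericytes, fibroblasts and meninges, cells that also make matrix, were between 47.4 and 73.2 FPKM in K27M hindbrain and between 37.0 and 46.7 FPKM in K27M forebrain, with 9 of 14 markers below 1 FPKM in all libraries of each region, and their part in the matrix result was not tested. The 1 called member of that marker list was Acta2, smooth muscle actin, at 15.4, 15.8 and 12.4 FPKM in hindbrain and 4.32, 4.72 and 5.63 FPKM in forebrain (log2 change 1.40 ± 0.31, adjusted p = 0.0368), and its call was lost without culture A, B, C or E (adjusted p up to 0.181) and without the culture block (adjusted p = 0.296).

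**Figure D3:**
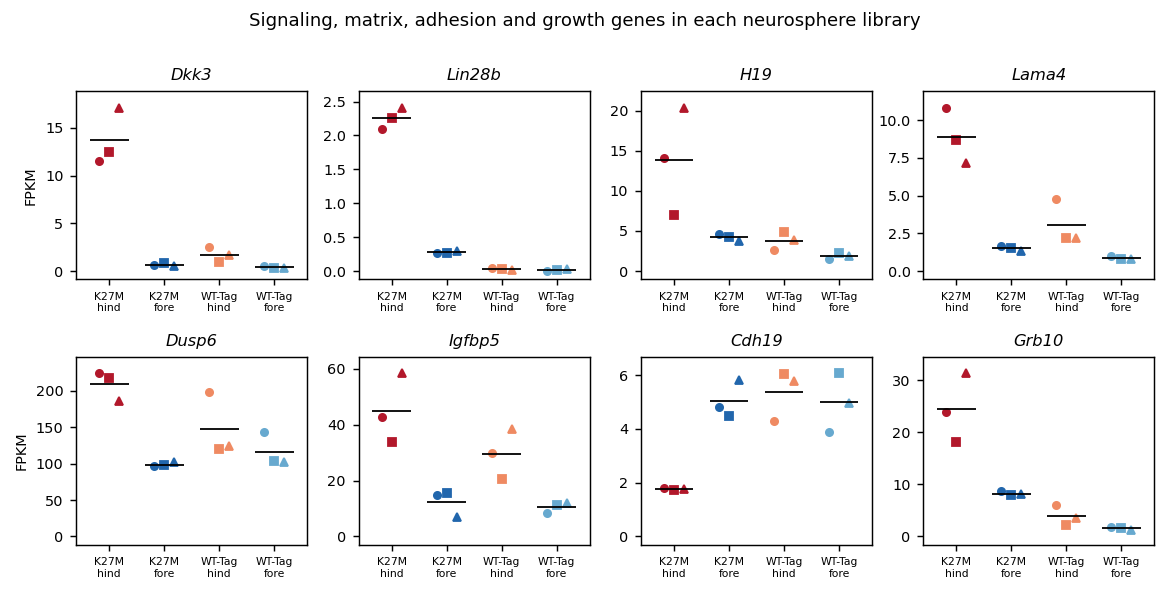
FPKM (y axis, from 0) of 8 signaling, growth, matrix and adhesion genes in each neurosphere library, by group. Circles are cultures A and D, squares B and E, triangles C and F, and bars are group means. Dkk3, Lin28b, H19, Lama4, Dusp6, Igfbp5 and Grb10 are higher in each K27M hindbrain library than in any K27M forebrain library, and Cdh19 is lower.

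Receptors of glutamate and GABA were lower in hindbrain more often than higher, with 4 lower and 2 higher of 17 tested (median log2 change -0.36). Gria2, the AMPA receptor subunit that blocks calcium entry, was at 5.47, 6.28 and 4.35 FPKM in K27M hindbrain, against 29.2, 32.8 and 30.1 FPKM in K27M forebrain (log2 change -2.33 ± 0.14, adjusted p = 0.000304). Grin2c, an NMDA receptor subunit, averaged 2.44 ± 0.746 FPKM in hindbrain and 13.8 ± 2.68 FPKM in forebrain (SD, n = 3 each; log2 change -2.12 ± 0.14, adjusted p = 0.000474). Grm3, a metabotropic receptor of astrocytes and precursors, was at 9.12, 9.47 and 7.83 FPKM in hindbrain and 30.4, 33.5 and 31.2 FPKM in forebrain (log2 change -1.74 ± 0.21, adjusted p = 0.00359). The 3 genes were lower in each hindbrain library than in any forebrain library. Neuron markers gave 3 lower calls and 1 higher of 8 tested, or 1 and 1 without culture A and without culture B. Elavl3, a neuronal RNA-binding protein, was at 0.936, 1.02 and 0.895 FPKM in hindbrain and 3.04, 3.19 and 2.46 FPKM in forebrain (log2 change -0.995 ± 0.11, adjusted p = 0.0024). Tubb3, neuronal tubulin, was at 2.4, 2.89 and 1.29 FPKM in hindbrain and 4.55, 5.98 and 2.69 FPKM in forebrain (log2 change -0.74 ± 0.14, adjusted p = 0.0226), with overlapping groups. Gap43, a growth cone protein, was the call in the other direction at 87.6, 79.6 and 63.4 FPKM in hindbrain and 26.1, 30.6 and 28.1 FPKM in forebrain (log2 change 1.40 ± 0.12, adjusted p = 0.00101). Summed neuron markers were between 125 and 148 FPKM in hindbrain and between 100.1 and 124 FPKM in forebrain, but Gap43 made up much of the hindbrain sums. Only 1 of the 8 tested markers had a positive log2 change, and their median was -0.37. The part of neurons in the receptor values was not tested. The call of Tubb3 was lost without culture A or B (adjusted p up to 0.118), and without the block (adjusted p = 0.122).

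Astrocyte genes gave more lower than higher calls in K27M hindbrain cultures, a count that fell without culture A or B. Calls over all genes tested fell as well, from 1194 to 302 without A and 539 without B. Of 15 astrocyte markers tested, 6 were lower and 1 higher (median log2 change -0.46), against 2 and 1 without culture A, 1 and 1 without B and 8 and 1 without C. Summed astrocyte markers were at 325, 332 and 421 FPKM in hindbrain and at 612, 654 and 472 FPKM in forebrain, so the lowest forebrain library, C, was closest to the hindbrain libraries. Gfap, the intermediate filament of astrocytes, was at 0.092, 0.129 and 0.173 FPKM in K27M hindbrain, against 5.62, 6.32 and 5.71 FPKM in K27M forebrain (log2 change -2.60 ± 0.13, adjusted p = 0.000139). Apoe, a lipid carrier of glia, was at 44.2, 53.7 and 91.9 FPKM in hindbrain and 236, 272 and 143 FPKM in forebrain (log2 change -1.78 ± 0.38, adjusted p = 0.0311). Agt, the angiotensin precursor made by astrocytes, was the 1 higher call at 16.1, 17.6 and 21.9 FPKM in hindbrain and 3.01, 3.72 and 1.51 FPKM in forebrain (log2 change 2.42 ± 0.22, adjusted p = 0.00129). The regions were apart for the 3 genes. Without the culture block 2 astrocyte markers were lower and 1 higher, and the lost calls included Gfap (adjusted p = 0.0704) and Apoe (0.0847). The Apoe call was also lost without culture A, B or E (adjusted p up to 0.173), whereas that of Gfap was kept with any 1 culture left out (adjusted p up to 0.00264).

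The window of 250 bases upstream of Gfap (RefSeq, GRCm38.p6, chr11:102897201-102897450, minus strand, printed on the gene's strand with CG in capitals) is given to set a glial gene beside the patterning genes above: it holds 2 CG with 55.6% G and C.
Gfap: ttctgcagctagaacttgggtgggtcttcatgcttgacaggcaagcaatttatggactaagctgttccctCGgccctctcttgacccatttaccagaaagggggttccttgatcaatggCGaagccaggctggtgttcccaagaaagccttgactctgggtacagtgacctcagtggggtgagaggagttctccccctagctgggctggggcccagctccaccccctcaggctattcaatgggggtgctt

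Oligodendrocyte lineage genes were lower in hindbrain in the paired fit, but few or no calls were left without culture A or B. Calls over all genes tested fell there too, from 1194 to 302 and 539. Of 13 precursor markers 6 were lower and none higher (median log2 change -0.45), against 0 called without culture A, 0 without B, 6 without C and 1 without the culture block. Lhfpl3, a membrane protein of precursors, was at 8.37, 8.62 and 4.22 FPKM in hindbrain and 25.1, 29.9 and 13 FPKM in forebrain (log2 change -1.53 ± 0.30, adjusted p = 0.0249). Gpr17, a receptor of committed precursors, was at 3.6, 3.11 and 2.17 FPKM in hindbrain and 15.1, 16.6 and 2.82 FPKM in forebrain (log2 change -1.39 ± 0.34, adjusted p = 0.0455). Tnr, the matrix protein tenascin-R, was at 2.62, 2.89 and 2.28 FPKM in hindbrain and 8.97, 10.02 and 3.08 FPKM in forebrain (log2 change -1.09 ± 0.26, adjusted p = 0.043). In each of them forebrain C was much lower than forebrain A and B, and for Gpr17 it fell within the hindbrain range. Summed precursor markers were at 644, 588 and 619 FPKM in hindbrain and at 735, 709 and 570 FPKM in forebrain.

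Of 7 mature oligodendrocyte markers tested, 4 were lower and none higher (median log2 change -1.15), and 1 was lower without culture A, 1 without B, 6 without C and none without the block. Ugt8a, the enzyme that makes the myelin lipid galactocerebroside, was at 1.52, 2.04 and 1.19 FPKM in hindbrain and 5.66, 7.14 and 3.8 FPKM in forebrain (log2 change -1.32 ± 0.10, adjusted p = 0.000833), with groups that did not overlap. Cldn11, a myelin tight junction protein, was at 0.59, 0.716 and 0.395 FPKM in hindbrain and 4.12, 4.91 and 1.27 FPKM in forebrain (log2 change -1.39 ± 0.22, adjusted p = 0.0105). Its groups were also apart, and forebrain C was the lowest forebrain library of both genes. The calls of Lhfpl3 (adjusted p = 0.0517), Gpr17 (0.182), Tnr (0.232), Ugt8a (0.0597) and Cldn11 (0.175) were lost without the block. Leaving out 1 culture ended the calls of Lhfpl3 without culture A, B or C (adjusted p up to 0.118), Gpr17 without A, B, D, E or F (adjusted p up to 0.213), Tnr without A, B, D or E (adjusted p up to 0.21) and Cldn11 without A or B (adjusted p up to 0.0772).

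**Figure D4:**
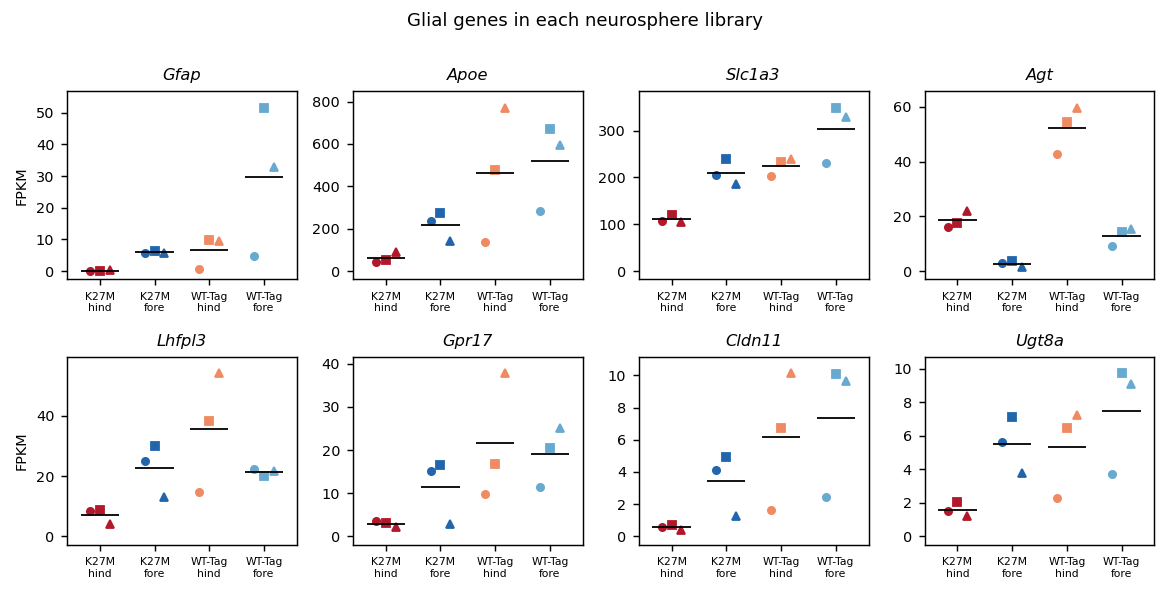
FPKM (y axis, from 0) of 8 glial genes in each neurosphere library, by group. Circles are cultures A and D, squares B and E, triangles C and F, and bars are group means. Gfap, Apoe and Slc1a3 are lower and Agt higher in each K27M hindbrain library than in any K27M forebrain library, whereas forebrain C, the blue triangle, lies close to or among the hindbrain libraries for Lhfpl3, Gpr17 and Cldn11.

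Markers of stem cells and of other lineages were called in both directions, and proliferation genes gave 1 call. The shares called were 27.8% of stem cell markers and 4.55% of proliferation genes, beside 9.05% of all genes tested. Of 18 neural stem and progenitor markers 4 were lower and 1 higher (median log2 change 0.05). Slc1a3, the glutamate transporter of radial glia and astrocytes, was at 107, 119.8 and 105 FPKM in hindbrain and 205, 239 and 185 FPKM in forebrain (log2 change -0.91 ± 0.10, adjusted p = 0.00242). Prom1, the stem cell surface protein prominin-1, was at 4.19, 3.98 and 4.29 FPKM in hindbrain and 8.34, 9.37 and 8.4 FPKM in forebrain (log2 change -0.91 ± 0.10, adjusted p = 0.00284). Tnc, given above, was the marker higher in hindbrain. Of 22 proliferation genes 1 was called, Aurka, a mitotic kinase, at 35.3, 35.7 and 29.5 FPKM in hindbrain and 28, 26.7 and 22 FPKM in forebrain (log2 change 0.38 ± 0.09, adjusted p = 0.0459), and the median log2 change of the list was -0.03. That call was lost without culture A, B, C, E or F (adjusted p up to 0.182) and without the block (adjusted p = 0.563). Among 4 tested genes of ependyma and choroid plexus, the 2 calls were Otx2 and Ttr. Ttr, the thyroid hormone carrier made by choroid plexus, was at 1.93, 1.7 and 7.63 FPKM in hindbrain and 23, 14 and 69.8 FPKM in forebrain (log2 change -2.85 ± 0.58, adjusted p = 0.0265), and forebrain C was its highest library. That call was lost without culture A, B, C or E (adjusted p up to 0.134) and without the block (adjusted p = 0.0889). Among 7 neural crest and Schwann cell genes 2 were called, and the nerve growth factor receptor Ngfr was at 0.204, 0.142 and 0.115 FPKM in hindbrain and 1.59, 2.33 and 1.1 FPKM in forebrain (log2 change -1.19 ± 0.17, adjusted p = 0.00793), a call that was lost without culture A (adjusted p = 0.052).

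Genes of the fetal growth and Lin28 axis were more often higher than lower in K27M hindbrain, although this list was drawn up with earlier results of these libraries known. Of 8 tested, 4 were higher and 1 lower (median log2 change 0.74), against none without culture A and 2 and none without B or C. Lin28b, an RNA-binding protein that blocks maturation of let-7 microRNAs, was at 2.09, 2.26 and 2.41 FPKM in K27M hindbrain, against 0.265, 0.263 and 0.296 FPKM in K27M forebrain (log2 change 1.35 ± 0.13, adjusted p = 0.00136). Its 3 hindbrain libraries were the only ones of the 12 above 1 FPKM, so that without one of cultures A, B and C the gene no longer passed the filter and was not tested. H19, a maternally expressed noncoding RNA, was at 14.1, 6.96 and 20.4 FPKM in hindbrain and 4.68, 4.25 and 3.7 FPKM in forebrain (log2 change 1.40 ± 0.26, adjusted p = 0.0182). Grb10, an imprinted adaptor that limits insulin and IGF signaling, was at 23.9, 18.1 and 31.4 FPKM in hindbrain and 8.68, 7.87 and 8.06 FPKM in forebrain (log2 change 1.44 ± 0.21, adjusted p = 0.00794). The regions did not overlap for the 3 genes, and the highest library of each was hindbrain C. Calls were lost for H19 without culture A (adjusted p = 0.104) and Grb10 without A (adjusted p = 0.0524).

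The Lin28b window of 250 upstream bases (RefSeq, GRCm38.p6, chr10:45470202-45470451, minus strand, printed on the gene's strand with CG in capitals) is given beside those of Irx2 and Lhx2, which hold more CG: it holds 6 CG with 39.2% G and C.
Lin28b: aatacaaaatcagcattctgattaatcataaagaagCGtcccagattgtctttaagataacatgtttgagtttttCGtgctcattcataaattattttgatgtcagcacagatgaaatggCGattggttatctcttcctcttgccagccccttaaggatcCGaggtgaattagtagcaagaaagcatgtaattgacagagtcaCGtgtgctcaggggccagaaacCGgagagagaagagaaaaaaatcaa

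Imprinted genes, which are expressed from 1 parental allele, gave 8 higher and 2 lower calls of 18 tested (median log2 change 0.38), against none without culture A, 6 and none without B and 5 and 1 without C. Peg10, a retrotransposon-derived gene, was at 42.8, 45.1 and 39.3 FPKM in hindbrain and 9.71, 9.43 and 13 FPKM in forebrain (log2 change 1.90 ± 0.32, adjusted p = 0.0129). Cdkn1c, an imprinted inhibitor of cyclin-dependent kinases, was at 41.1, 27.3 and 36.4 FPKM in hindbrain and 17.4, 21 and 8.88 FPKM in forebrain (log2 change 1.16 ± 0.27, adjusted p = 0.042) and was the 1 call among 7 such inhibitors. Cdkn2a, which encodes p16 and p19, was at 2.91, 2.72 and 1.78 FPKM in hindbrain and 1.37, 1.72 and 2.47 FPKM in forebrain, with overlapping groups (adjusted p = 0.42). Calls were lost for Peg10 without culture A or B (adjusted p up to 0.0847) and Cdkn1c without A, C, D, E or F (adjusted p up to 0.179).

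Hypoxia response genes were higher in hindbrain in 4 and lower in 1 of 14 tested, and their median log2 change was 0.78. Their summed level was 1317, 918 and 1075 FPKM in K27M hindbrain and 687, 719 and 501 FPKM in K27M forebrain, with no overlap. Ndrg1, a stress-response gene, was at 15.7, 9.06 and 10.5 FPKM in hindbrain and 3.52, 3.46 and 1.9 FPKM in forebrain (log2 change 1.68 ± 0.24, adjusted p = 0.00686). Ankrd37 was at 17.3, 8.08 and 11.9 FPKM in hindbrain and 5.49, 5.71 and 2.1 FPKM in forebrain (log2 change 1.33 ± 0.31, adjusted p = 0.0402). Car9, a carbonic anhydrase strongly induced by low oxygen, ran against the others at 0.884, 0.511 and 0.258 FPKM in hindbrain and 3.56, 5.03 and 1.65 FPKM in forebrain (log2 change -1.45 ± 0.34, adjusted p = 0.0434). Without culture A none of the list was called, and single calls were lost for Ndrg1 without culture A (adjusted p = 0.0561), Ankrd37 without A, C, D, E or F (adjusted p up to 0.185) and Car9 without A, B, C or D (adjusted p up to 0.155). Without the block 6 were higher and none lower, and Car9 missed the threshold (adjusted p = 0.11).

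Interferon, p53 and immediate early genes gave at most 3 calls each, or 37.5%, 5% and 7.69% of those tested, beside 9.05% of all genes tested. Of 8 interferon response genes, 2 were higher and 1 lower. Bst2, the antiviral membrane protein tetherin, was at 20.6, 13.9 and 18.4 FPKM in hindbrain and 5.23, 4.7 and 4.09 FPKM in forebrain (log2 change 1.70 ± 0.25, adjusted p = 0.00822). Stat2, an interferon signal transducer, was at 3.19, 2.96 and 3.6 FPKM in hindbrain and 1.95, 2.05 and 1.7 FPKM in forebrain (log2 change 0.55 ± 0.11, adjusted p = 0.0241), with hindbrain above forebrain for both genes. Of 20 p53 target genes 1 was called, the stress protein gene Sesn1, at 17.4, 15.8 and 21.9 FPKM in hindbrain and 12, 12.2 and 9.66 FPKM in forebrain (log2 change 0.65 ± 0.14, adjusted p = 0.0354). Of 13 immediate early genes 1 was called, Arc, a synaptic activity gene, at 32.3, 25.7 and 19.1 FPKM in hindbrain and 40.3, 36.1 and 31.7 FPKM in forebrain (log2 change -0.50 ± 0.11, adjusted p = 0.0325), with overlapping groups. Calls were lost for Bst2 without culture A (adjusted p = 0.0608), Stat2 without A, B, C or E (adjusted p up to 0.125), Sesn1 without A, D, E or F (adjusted p up to 0.121) and Arc without A, B, C or E (adjusted p up to 0.105), and Arc also without the block (adjusted p = 0.375).

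Chromatin genes tied to the K27M pathway were not called in either direction: 0 of 11 PRC2 subunits and partners, 0 of 16 PRC1 subunits, 0 of 10 H3.3 genes and chaperones and 0 of 7 H3K27 demethylases and acetylation genes passed. At the 9.05% called over all genes tested, lists this short would hold few calls. The members with the largest change were Jarid2, a PRC2 partner, at 8.75, 7.74 and 11.9 FPKM in hindbrain and 6.51, 6.56 and 6.13 FPKM in forebrain (log2 change 0.48 ± 0.13, adjusted p = 0.0592), Rnf2, the PRC1 ubiquitin ligase, with log2 change 0.28 (adjusted p = 0.071), Hira, an H3.3 chaperone, with -0.35 (0.18), and Kdm6b, an H3K27 demethylase, with 0.32 (0.393). Ezh2, the PRC2 methyltransferase, was at 16.9, 18.1 and 16.7 FPKM in hindbrain and 17.1, 16 and 20.7 FPKM in forebrain (log2 change -0.05 ± 0.11, adjusted p = 0.814). Its groups overlapped. H3f3b, the other gene for H3.3, was at 212, 209 and 244 FPKM in hindbrain and 219.7, 245 and 170.4 FPKM in forebrain (log2 change 0.08 ± 0.17, adjusted p = 0.799). A missed threshold does not show equal levels. A pair of further lists without calls were the microglia markers, with 2 members tested, and the transmitter identity genes of neurons, among them Npy at 0.124, 0.609 and 0.643 FPKM in hindbrain and 1.94, 1.48 and 0.644 FPKM in forebrain (log2 change -0.67 ± 0.31, adjusted p = 0.227).

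The same contrast in WT-Tag cultures, which shares no library with the K27M contrast, gave 266 calls (2.02%), 157 higher and 109 lower in hindbrain. Both contrasts use the same estimate of the spread, and their cultures share the experiment ids described below, so they are not fully independent. There were 200 genes called in both genotypes, 16.8% of the K27M calls and 75.2% of the WT-Tag calls, and all 200 had the same sign. Of the 1194 K27M calls, 91.5% had the same sign in WT-Tag cultures, against 69.4% of all genes tested. Several patterning factors were called in both genotypes. Of the hindbrain list 6 genes were higher in WT-Tag hindbrain, and of the forebrain list 6 were lower and none higher. Irx2 was at 7.47, 6.24 and 7.82 FPKM in WT-Tag hindbrain and 0.059, 0.056 and 0.105 FPKM in WT-Tag forebrain (log2 change 2.92 ± 0.11, adjusted p = 0.000147), and Lhx2 at 0.107, 0.041 and 0.104 FPKM in WT-Tag hindbrain and 7.35, 6.17 and 6.79 FPKM in WT-Tag forebrain (log2 change -2.84 ± 0.11, adjusted p = 0.000147). Meis1 was at 10.7, 12.2 and 13.3 FPKM in WT-Tag hindbrain and 5.61, 4.37 and 4.99 FPKM in WT-Tag forebrain (log2 change 1.13 ± 0.11, adjusted p = 0.00467). For these 3 genes the WT-Tag regions were apart, as the K27M regions were. The 4 forebrain factors higher in K27M hindbrain were not called in WT-Tag cultures, where Otx2 had a log2 change of 1.54 (adjusted p = 0.166), Tcf7l2 of 0.35 (0.546), Barhl2 of 0.54 (0.22) and Nr2f1 of 0.71 (0.132). Meis2 (-0.43, adjusted p = 0.299) and Dmrta1 (-0.71, 0.0849) were not called there either. A call in 1 genotype only does not show a difference between genotypes. In the limma test of the difference between the 2 region effects, none of these genes passed. Adjusted p was 0.907 for Otx2, 0.324 for Tcf7l2, 0.395 for Barhl2, 0.709 for Nr2f1, 0.435 for Meis2 and 0.697 for Dmrta1.

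**Figure D5:**
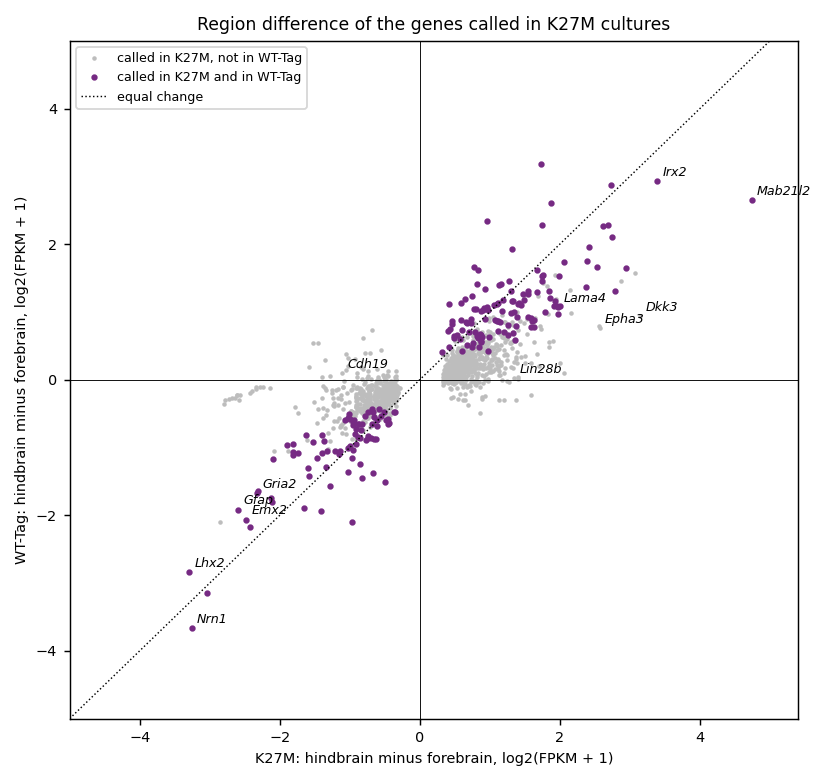
Log2(FPKM + 1) change of the 1194 genes called in K27M cultures (x axis, hindbrain minus forebrain) against the change of the same genes in WT-Tag cultures (y axis). Purple points are the 200 genes also called in WT-Tag cultures, grey points the others, and the dotted line marks equal change. The genes were chosen on the x axis, and all 200 purple points have the same sign on both axes.

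Whether a region difference depended on the histone was asked of the difference between the 2 region effects, and the number of calls turned on how cultures were paired. With the culture letter as the only block no gene passed (limma, lowest adjusted p = 0.125), and 1184 (8.98%) had an unadjusted p below 0.05. The annotated gene with the smallest p was Cdh19, at 4.29, 6.03 and 5.77 FPKM in WT-Tag hindbrain and 3.89, 6.08 and 4.97 FPKM in WT-Tag forebrain, beside the K27M values given above (difference of log2 changes -1.21 ± 0.13, unadjusted p = 2.93e-05, adjusted p = 0.125). In WT-Tag cultures its regions overlapped. The predicted models Gm10718 (difference of log2 changes -2.19 ± 0.25, unadjusted p = 3.66e-05, adjusted p = 0.125) and Gm11168 (difference of log2 changes -2.23 ± 0.26, unadjusted p = 4.77e-05, adjusted p = 0.125) came next, and their K27M hindbrain libraries were the lowest of the 12. Gm10718 was at 771, 1092 and 590.4 FPKM in K27M hindbrain and 3431, 4747 and 3953 FPKM in K27M forebrain (log2 change -2.34 ± 0.18, adjusted p = 0.000833). Gm11168 stood at 46.2, 63.9 and 33.1 FPKM in hindbrain and 194, 284 and 242 FPKM in forebrain (log2 change -2.34 ± 0.19, adjusted p = 0.000888).

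Without the culture block 5 genes (0.0379%) passed for the difference, each at an adjusted p of 0.0389: Dkk3, Htr3a, Lin28b and Slc38a4 with the more positive change in K27M cultures and Mtmr11 with the more negative one. Lin28b and Slc38a4 passed the expression filter only through the K27M hindbrain libraries, the group where they were high, so their calls are no separate support for a difference. Lin28b was at 0.052, 0.037 and 0.02 FPKM in WT-Tag hindbrain and 0.007, 0.015 and 0.033 FPKM in WT-Tag forebrain, near 0 in both regions (difference of log2 changes 1.33 ± 0.18, unadjusted p = 0.000113, adjusted p = 0.125, with the block). Dkk3 was at 2.48, 0.927 and 1.68 FPKM in WT-Tag hindbrain and 0.484, 0.354 and 0.287 FPKM in WT-Tag forebrain (difference of log2 changes 2.21 ± 0.27, unadjusted p = 5.89e-05, adjusted p = 0.125). Mtmr11 was at 11.7, 13.7 and 13.3 FPKM in WT-Tag hindbrain and 26, 26 and 26 FPKM in WT-Tag forebrain (difference of log2 changes -0.93 ± 0.11, unadjusted p = 6.33e-05, adjusted p = 0.125). Dkk3 and Mtmr11 kept apart by region in WT-Tag cultures as well, by a smaller amount. None of the 5 passed with the culture block alone (adjusted p = 0.125 for each). Blocked fits with other settings gave 27 calls without culture D, 4 with quantile scaling and 1 without culture C.

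The labels give cultures A and D the same experiment id, as they do B and E, and C and F. Deviations of the region effect from its genotype mean correlated across genes within each of these pairs, at 0.202, 0.453 and 0.59 for experiments 1, 2 and 3. In a limma fit added after seeing the data, in which the region effect could also differ by experiment (2 residual degrees of freedom), 81 genes (0.614%) passed for the difference. The change was more positive in K27M cultures for 33 of them and more negative for 48. The 48 include 12 predicted models of near-identical sequence, Gm10718 and Gm11168 among them, which are not independent of each other. With an experiment left out the count was 287 without experiment 1, 16 without 2 and 90 without 3, and 77, 15 and 54 of these were among the 81.

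Several genes described above were among the 81. Values are the K27M minus the WT-Tag log2 change, ± SE. Dkk3 (difference of log2 changes 2.21 ± 0.19, adjusted p = 0.0106), Rcn3 (difference of log2 changes 1.77 ± 0.13, adjusted p = 0.00542), Sfrp5 (difference of log2 changes 1.34 ± 0.19, adjusted p = 0.0441) and Foxb1 (difference of log2 changes 1.49 ± 0.21, adjusted p = 0.0442) had the more positive region change in K27M cultures. Rcn3 was at 4.3, 2.78 and 4.67 FPKM in WT-Tag hindbrain and 1.74, 2.02 and 1.63 FPKM in WT-Tag forebrain, and Foxb1 at 2.54, 1.39 and 1.02 FPKM in WT-Tag hindbrain and 0.022, 0.062 and 0.041 FPKM in WT-Tag forebrain. The cadherins Cdh19 (difference of log2 changes -1.21 ± 0.14, adjusted p = 0.0293) and Cdh10 (difference of log2 changes -0.99 ± 0.13, adjusted p = 0.0364), Mtmr11 (difference of log2 changes -0.93 ± 0.11, adjusted p = 0.0353) and the hypoxia gene Car9 (difference of log2 changes -1.99 ± 0.25, adjusted p = 0.0364) had the more negative one. So did the glial genes Apoe (difference of log2 changes -1.38 ± 0.17, adjusted p = 0.0364), Gpr17 (difference of log2 changes -1.43 ± 0.20, adjusted p = 0.0433), Tnr (difference of log2 changes -0.98 ± 0.13, adjusted p = 0.0364), Ugt8a (difference of log2 changes -0.88 ± 0.11, adjusted p = 0.0364) and Cldn11 (difference of log2 changes -1.12 ± 0.15, adjusted p = 0.0435). Apoe was at 135, 476 and 772 FPKM in WT-Tag hindbrain and 285, 671 and 597 FPKM in WT-Tag forebrain, with overlapping regions. Arc (difference of log2 changes 1.02 ± 0.10, adjusted p = 0.0208) and Npy (difference of log2 changes -1.42 ± 0.17, adjusted p = 0.0353) passed as well. Of the 5 genes called with no block, Dkk3, Htr3a, Slc38a4 and Mtmr11 passed here and Lin28b did not (adjusted p = 0.0516). The limit of the expression filter given above for Slc38a4 holds here too.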

How the data were processed

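Per the labels' protocols, RNA from neurosphere cells was extracted with Trizol after addition of ERCC spike-ins, and the library kit was TruSeq Stranded Total RNA. The tools CASAVA, TopHat2 and STAR and the genome mm9 are named, without versions or roles, per the submitters' processing notes. The authors deposited 1 table of FPKM values with 34591 entries, rounded to 3 decimals. The sources used here name no counting tool or gene models, read depth is unknown, and near-identical copies and antisense genes are uncertain.

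The 12 neurosphere libraries were fitted together with limma 3.58.1 (R 4.3.3) on the scale log2(FPKM + 1), with the culture letter as a block, a trend of variance on the mean (4 residual degrees of freedom), 2-sided tests and Benjamini-Hochberg adjustment. Genes were tested where 3 or more libraries reached an FPKM of 1. The script was tested on simulated data. Labels tie each letter to 1 experiment id, which pairs the libraries, and 2 letters, 1 of each genotype, share an id. A further fit with region-by-experiment terms, added after seeing the data, used this for the difference between genotypes. Deviations from the group mean correlated between same-lettered libraries at 0.216, -0.0471 and -0.0405 for A, B and C, and at 0.668, 0.712 and 0.165 for D, E and F. Relative depth came from the steps between low FPKM values of the same gene in different libraries.

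The comparison and the 43 gene lists (763 distinct genes found) were chosen with earlier results of these data known. Genes were named by a rule: the 15 largest called changes in each direction with all pairs in 1 direction and groups apart, called regional factors, HOX genes, up to 3 called members (or the 1 with the largest change) of each other list, the 3 smallest p-values of the difference, and H3f3a, H3f3b and Xist. Cdkn2a, En2, Ezh2, Fzd10, Htr3a, Nes, Pdgfra, Slc38a4, Sox2, Wnt5a, Wnt7b and Zic1 were added after their values were seen, and some genes the rule names are not reported here. Alternatives were no block, 1 genotype alone, other pseudocounts, filters and scalings, a robust variance model and each culture left out. Promoter windows came from RefSeq (GRCm38.p6), for leading genes whose window holds no annotated exon in GENCODE M21.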

Additional observations from a re-analysis of the deposited data

How the results depend on the processing

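The count of 1194 K27M calls stayed within 1.5 times under both pseudocounts, the stricter filter, quantile and median-ratio scaling, the robust variance model and the fit of K27M libraries alone without a block. It was 1044 without the replicate block, 904 of them shared with the paired fit, 618 with no filter on low values (32641 genes tested) and 502 with K27M libraries alone and the block, where 2 residual degrees of freedom remain. It ran between 302 and 1035 with a culture left out and, chosen after seeing the data, between 493 and 756 with 1 K27M library left out and no block. The 266 WT-Tag calls became 109 with no filter and 138 with the stricter filter, and ran between 48 and 569 with a culture left out. The difference between genotypes, with 0 calls, gave 5 without the block and 4 with quantile scaling, between 0 and 27 with a culture left out (27 without D), and between 0 and 2 with a library left out. With experiment id as a further replicate block it gave 81, and 287, 16 and 90 with experiment 1, 2 or 3 left out. Of 107 named genes called, 52 kept their call in every setting and 66 in every planned setting other than left-out cultures. Among genes reported here, the calls lost with no filter were those of Ebf1, Ttr, Cnpy1, Nfia, Nr2f1, Otx2, Pbx2, Aldh1a1, Gas1, Id4, Igfbp5, Mfng, Ephb4, Sema3c, Aurka, Apoe, Lhfpl3, Gpr17, Tnr, Tubb3, Acta2, Cdkn1c, H19, Peg10, Car9, Ankrd37, Arc, Stat2, Sesn1, Pdgfra and Wnt5a, and with K27M libraries alone and the block those of Nfia, Nr2f1, Pbx2, Aldh1a1, Gas1, Ptch1, Id4, Igfbp5, Mfng, Ephb4, Sema3c, Aurka, Apoe, Gpr17, Tnr, Cldn11, Cdkn1c, H19, Ankrd37, Arc, Stat2, Sesn1, Pdgfra and Wnt5a. A pseudocount of 0.1 ended the call of Otx2, and one of 5 those of Cnpy1, Aldh1a1, Sema3c, Gpr17, Tnr and Car9. The stricter filter ended those of Pbx2 and Aldh1a1, quantile scaling those of Cnpy1, Nfia, Aldh1a1 and Car9, and median-ratio scaling those of Cnpy1, Nfia and Aldh1a1. Over 2632 gene and setting pairs, 2176 kept direction and side of the threshold, 431 lost the call and 7 gained it. With 1 culture or library left out, the log2 change of the 7 genes that reversed, none of them called, ran between -0.032 and 0.54 for Kdm6b, -0.17 and 0.39 for Xist, -0.14 and 0.23 for H3f3b, -0.16 and 0.070 for Ezh2, -0.077 and 0.066 for Nes, -0.15 and 0.199 for Sox2 and -0.60 and 0.23 for Zic1, and H3f3b was at -0.042 with quantile scaling. Beyond what these settings show by construction (fewer samples, more genes tested), the cause was not tested. Scaling moved the median log2 change by at most 0.01, and calls were higher in 57.2%, 56.9% and 61.1% under no, quantile and median-ratio scaling. Genes near 0 in 1 region, HOX genes among them, are limited by depth, which is lowest in forebrain A.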

Other observations

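Some regional factors lay below the expression filter and were not tested in the main comparison, yet separated the regions. Gbx2, a homeodomain factor of the front of the hindbrain, was at 0.306, 0.338 and 0.577 FPKM in hindbrain and 0.024, 0.016 and 0.006 FPKM in forebrain (adjusted p = 0.0251 in the limma fit with no filter). Dmrt3, a doublesex-related factor of the dorsal telencephalon, was listed at 0 in the 3 hindbrain libraries, against 0.753, 1.04 and 0.882 FPKM in forebrain (adjusted p = 0.0145). Dlx1, a homeodomain factor of ventral telencephalic interneurons, was at 0, 0.016 and 0.031 FPKM in hindbrain and 0.815, 0.559 and 0.449 FPKM in forebrain (adjusted p = 0.0457). In WT-Tag cultures Gbx2 was at 0.492, 0.44 and 0.478 FPKM in hindbrain and 0, 0.016 and 0.023 FPKM in forebrain. These 3 genes were picked after their values were seen.

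A set of 12 predicted gene models of the kind known to hold satellite repeats (Gm10715 to Gm10722, Gm10800, Gm10801, Gm11167 and Gm11168) summed to 4301, 6278 and 3266 FPKM in K27M hindbrain libraries A, B and C, and to 20518, 29368 and 30469 FPKM in K27M forebrain libraries. In WT-Tag cultures the sums were 12843, 30613 and 16836 FPKM in hindbrain and 14409, 27064 and 27754 FPKM in forebrain. The K27M hindbrain libraries were below each of the other 9 libraries. These models share near-identical sequence, so reads can be split among them, and they are not independent of each other. Models of ribosomal RNA, which can follow the efficiency of ribosomal depletion, were highest in K27M forebrain C and in WT-Tag hindbrain E, forebrain E and forebrain F (729, 684, 615 and 423 FPKM), and their part in the satellite values was not tested.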
